A study of Mus musculus with 21 samples.

Results

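The loci described here are 3′ untranslated region (3′ UTR) intervals of the mouse genome whose read level in the heart was at least 2 times higher in Lmna F/F than in Lmna +/+ mice, in 2 separate sets of mice. There were 577 of them, among 121259 loci that remained after overlapping intervals were reduced to 1, and among 17604 loci with a mean of at least 1 CPM in Lmna F/F Uprt hearts. CPM, the level of a locus, is its read count per 1000000 reads on all kept loci of the library. A locus was taken when its mean was at least 1 CPM in Lmna F/F Uprt hearts and at least 2 times that of Lmna +/+ Uprt hearts, and when its mean in Lmna F/F hearts without Uprt was at least 2 times that of Lmna +/+ hearts without Uprt. The first ratio was met by 665 loci and the second by 1487 loci of at least 1 CPM, and each count includes the 577 that met both. The loci were thus selected on these group means, and the change between Lmna genotypes is given below as a description without a test.

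Lmna encodes lamins A and C, filament proteins that line the inner face of the nuclear envelope and hold the nucleus in shape in cells under mechanical load such as cardiomyocytes. In SLAM-IT-seq, 4-thiouracil is built into new RNA in cells that hold the enzyme uracil phosphoribosyltransferase (Uprt), and alkylation then makes the analogue read as a T>C conversion. Reads with a conversion therefore mark RNA made during labelling, sequencing error, or a T>C difference between the mouse and the reference genome.

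The study held 6 Lmna F/F Uprt Tg/0 mice (4 females, 2 males), 8 Lmna +/+ Uprt Tg/0 mice (4 females, 4 males), a group of 4 Lmna F/F mice that lacked Uprt (2 females, 2 males) and a group of 3 Lmna +/+ males that lacked it. All 21 carried the transgene Myh6MCM Tg/0, a tamoxifen-inducible Cre recombinase driven by a cardiomyocyte promoter, so the deletion of the floxed (F) Lmna allele is aimed at cardiomyocytes while the left-ventricular free wall that was sampled also holds other cell types. All mice received tamoxifen on 4 days at 6 to 8 weeks of age and 4-thiouracil 2 weeks later, and hearts were taken after 6 hours; the labels do not give the cell type in which Uprt is expressed. The RNA is of whole tissue, so more or fewer cells of a type and more or less RNA per cell cannot be told apart.

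Libraries held between 25975911 and 51007428 reads on kept loci, of which 3.08% to 5.93% carried a T>C conversion. On the CPM scale the median locus of at least 1 CPM was 0.13 higher (log2) in Lmna F/F than in Lmna +/+ hearts with Uprt. Without Uprt it was 0.16 higher. This is a shift of the median and not of each locus. It depended on the scale: with library sizes scaled by TMM, the medians were -0.015 with Uprt and -0.006 without. The labels give no replicate numbers, so hearts are numbered here within each group in the order of the samples. Hearts 1 and 2 of the Lmna F/F group without Uprt stood apart from the others in the loci described here, as shown next. The correlations that rest on them are given with and without them.

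The summed level of the 577 loci was 8749, 11016, 7920, 7041, 9286 and 7820 CPM in the 6 Lmna F/F Uprt hearts, against a lowest value of 2774, a median of 3272 and a highest value of 3893 CPM in the 8 Lmna +/+ Uprt hearts. It was 23327, 19147, 6425 and 9501 CPM in the 4 Lmna F/F hearts without Uprt, against 3434, 3328 and 3069 CPM in the 3 Lmna +/+ hearts without Uprt. The genotypes did not overlap in this sum, which follows from how the loci were chosen. Within Lmna F/F, hearts 1 and 2 without Uprt were far above the rest and heart 3 without Uprt was the lowest. The loci averaged 2.30 and 2.03 above the Lmna +/+ mean on the log2 scale in those 2 high hearts, 0.73 in heart 3 and 1.15 in heart 4, against 1.08 to 1.53 in Lmna F/F Uprt hearts.

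**Figure D1:**
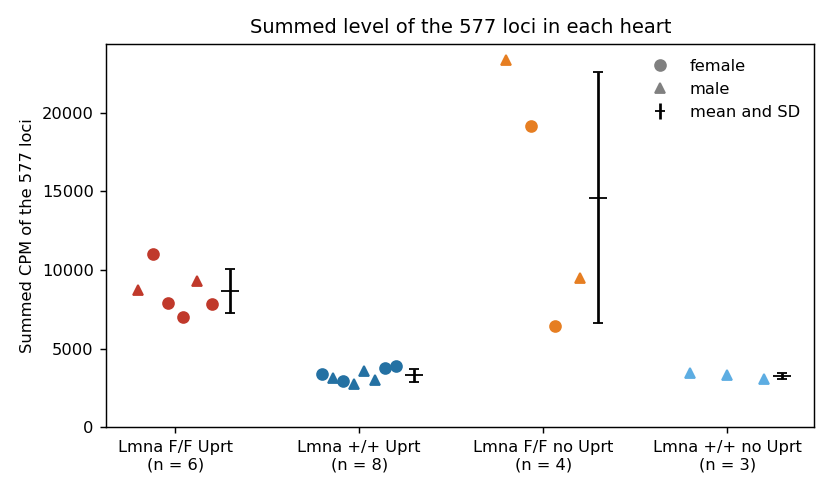
Summed level of the 577 loci (CPM, vertical axis) in each heart, by group, with circles for females, triangles for males and bars for the mean and SD. The Lmna F/F hearts lie between 6425 and 23327 CPM and the Lmna +/+ hearts between 2774 and 3893 CPM.

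The spread among the Lmna F/F hearts was shared by most of the loci. Of the 577 loci, 362 had their highest level among the 10 Lmna F/F hearts in heart 1 without Uprt and 142 in heart 2 without Uprt, while 272 had their lowest level in heart 3 without Uprt. The loci above every Lmna +/+ heart, with or without Uprt, were also counted in each Lmna F/F heart. They ranged from 331 in heart 3 without Uprt to 564 in heart 1 without Uprt. The same count over all loci was not made. The part of depth and of mitochondrial reads was not tested: hearts 1 to 4 without Uprt held 35547641, 33873071, 38150713 and 47012484 reads, and 27.0%, 29.7%, 27.4% and 26.5% of their reads lay on mitochondrial loci. With Uprt, every Lmna F/F heart was above every Lmna +/+ heart at 323 of the 577 loci, where 3.77% of all loci of at least 1 CPM did so. Without Uprt this held for 433 of the 577 loci, where 15.6% of all loci did so, and it held in both sets of mice for 274, where 462 of the 17604 loci (2.62%) did so. These counts use the contrast that chose the loci.

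The coefficient of variation over hearts shows the same spread. Its median over the 577 loci was 28.0% in Lmna F/F Uprt, 42.9% in Lmna +/+ Uprt, 58.2% in Lmna F/F without Uprt and 30.8% in Lmna +/+ without Uprt. Over the 17027 other loci of at least 1 CPM it was 19.6%, 23.4%, 22.1% and 16.5% in the same order of groups. The 577 loci had fewer reads than the others, and counting error is larger at such loci.

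Most of the loci were read at a low level. The median of their group means was 3.35 CPM in Lmna F/F Uprt hearts and 1.19 CPM in Lmna +/+ Uprt hearts, and it was 4.99 CPM in Lmna F/F and 1.21 CPM in Lmna +/+ hearts without Uprt. In Lmna +/+ Uprt hearts 257 of the 577 loci (44.5%) lay under 1 CPM, against 1027 of the 17027 other loci (6.03%). Of the 577, 519 lay under 10 CPM, 58 at or above it and 6 at or above 100 CPM. The rule itself lowers the Lmna +/+ level relative to that in Lmna F/F, so this comparison is a description. In Lmna F/F Uprt hearts, where both sets had to reach 1 CPM, the median of the 577 loci was 3.35 CPM and that of the other loci 6.16 CPM.

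**Figure D2:**
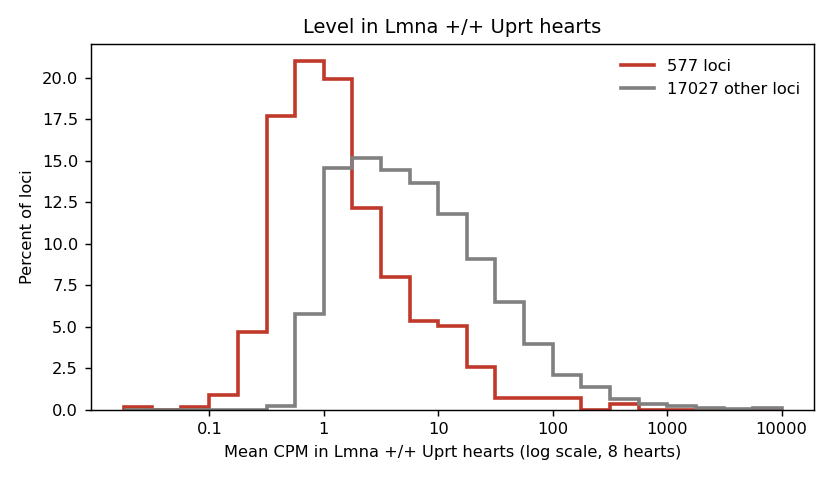
Mean CPM in the 8 Lmna +/+ Uprt hearts (log scale, horizontal axis) of the 577 loci (red) and of the 17027 other loci of at least 1 CPM in Lmna F/F Uprt hearts (grey), as the percent of each set per bin. The 577 loci centre near 1 CPM, with a median of 1.19 CPM, and 6 of them reach 100 CPM.

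The 10 loci with the highest level in Lmna +/+ Uprt hearts are the ones measured with the most reads. At chr5:142888870-142889552 (mm39, minus strand, transcript ENSMUST00000100497.11) Lmna F/F Uprt hearts held 998, 1238, 986, 829, 1054 and 913 CPM, against a lowest value of 311, a median of 445 and a highest value of 581 CPM in Lmna +/+ Uprt hearts. Without Uprt the locus had 2367, 1622, 754 and 853 CPM in Lmna F/F hearts and 503, 426 and 384 CPM in Lmna +/+ hearts. Every Lmna F/F heart exceeded every Lmna +/+ heart here, and hearts 1 and 2 without Uprt were again the highest.

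The second locus, chr19:36089361-36090217 (minus strand, transcript ENSMUST00000236579.2), varied far more within groups. It had 563, 1342, 488, 422, 1320 and 1209 CPM in Lmna F/F Uprt hearts, against 185, 390 and 532 CPM as the lowest, median and highest of the Lmna +/+ Uprt hearts. Without Uprt it had 3275, 2610, 1071 and 1474 CPM in Lmna F/F hearts and 237, 512 and 293 CPM in Lmna +/+ hearts. The groups with Uprt overlapped at this locus, and those without Uprt did not.

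The next in level was chr10:117113236-117114025 (minus strand), with 492 ± 112 CPM in Lmna F/F Uprt and 157 ± 28.5 CPM in Lmna +/+ Uprt hearts (SD, n = 6 and 8). At chr16:37654289-37656876 (plus strand) the values were 244 ± 49.1 and 107 ± 16.7 CPM. At chr6:4540663-4541544 (plus strand) they were 216 ± 70.7 and 102 ± 39.3 CPM. In all 3 the mean of the Lmna F/F hearts without Uprt was higher still, at 721, 401 and 546 CPM, against 172, 90.1 and 91.7 CPM in Lmna +/+ hearts without Uprt.

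Neighbouring loci were often chosen together. Of the 577 loci, 155 (26.9%) had another of the 577 within 50 kb, where 999 of the 17027 other loci (5.87%) had one. Counting only pairs of different transcript IDs that lay 5 to 50 kb apart, so that pieces of 1 transcript are left out, the shares were 135 loci (23.4%) and 817 loci (4.80%). The loci formed 66 runs, of which 49 held 2 loci, 12 held 3, 4 held 4 and 1 held 5. These shares are given without a test, and reads that run past the end of a neighbouring transcript were not examined.

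The run of 5 lay at chr1:45354740-45415243, and 1 of its loci held most of its reads. That locus, chr1:45387908-45388866 (plus strand), had 338, 472, 284, 262, 382 and 256 CPM in Lmna F/F Uprt hearts, against 75.5, 90.5 and 166 CPM as the lowest, median and highest of the Lmna +/+ Uprt hearts. Without Uprt it had 1301, 1221, 240 and 369 CPM in Lmna F/F hearts and 86.6, 97.8 and 84.0 CPM in Lmna +/+ hearts. Its neighbour on the other strand, chr1:45413481-45415243, averaged 19.6 CPM in Lmna F/F Uprt and 9.06 CPM in Lmna +/+ Uprt hearts.

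Other runs held 3 or 4 loci. At chr4:136607440-136623464 3 loci on the minus strand, each with its own transcript ID, averaged 183, 76.3 and 154 CPM in Lmna F/F Uprt and 73.7, 31.1 and 66.0 CPM in Lmna +/+ Uprt hearts. At chr3:90513047-90521721 3 loci on the plus strand averaged 5.19, 49.97 and 129 CPM in Lmna F/F Uprt and 2.59, 12.2 and 59.4 CPM in Lmna +/+ Uprt hearts. Runs of 4 lay at chr5:90908312-90921237, chr15:78443367-78506219, chr19:11403701-11459556 and chr9:75054147-75130970, with summed means of 86.9, 26.3, 22.8 and 9.55 CPM in Lmna F/F Uprt hearts and 37.7, 7.59, 8.07 and 4.31 CPM in Lmna +/+ Uprt hearts.

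The median interval length was 836 bases, against 834 bases for the other loci, and the median T content was 27.5% in both. The plus strand held 59.4% of the loci and 62.4% of the others. They lay on 20 chromosomes, with 60 (10.4%) on chromosome 11, where 7.52% of the others lay, and 26 (4.51%) on chromosome 3, where 5.51% of the others lay. Reads were nearly all unique: under 1% were multimapped at 516 of the 577 loci, and at least 50% at 13 loci (2.25%), against 3.51% of the others.

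The T>C share was not used to choose the loci, and the comparison of mice with and without Uprt within a genotype is independent of the rule. The summed reads of all 577 loci had a T>C share of 5.74% in Lmna F/F Uprt hearts and 3.91% in Lmna F/F hearts without Uprt, and of 5.61% in Lmna +/+ Uprt hearts and 4.00% in Lmna +/+ hearts without Uprt. The summed reads of the other loci of at least 1 CPM had 5.04%, 3.63%, 4.91% and 3.60% in the same order. On summed reads, which weigh the few highest loci most, the 577 loci thus had the higher share in each group. Heart 1 without Uprt went the other way in both genotypes, with 2.96% against 3.41% in Lmna F/F and 2.90% against 3.07% in Lmna +/+. In every other heart the 577 loci had the higher share. The other loci include the mitochondrial ones. Against other nuclear loci alone, heart 1 without Uprt was still lower in Lmna F/F (2.96% against 3.17%). In Lmna +/+ it was higher (2.90% against 2.66%). These 2 hearts also had low shares at chr1:45387908-45388866, 3.4% in Lmna F/F and 4.0% in Lmna +/+. Every other heart had 16.4% to 20.8% there. In the Lmna F/F heart this locus held 1301 CPM. The part of this locus in the summed shares was not tested. Per locus the median share was 3.55% in Lmna F/F Uprt, 3.66% in Lmna +/+ Uprt, 2.79% in Lmna F/F without Uprt and 2.12% in Lmna +/+ without Uprt. The other loci had medians of 6.20%, 6.13%, 2.53% and 2.40% in the same order. With Uprt, the median per locus was thus lower for the 577 loci than for the others in both genotypes, whereas the share of the summed reads was higher.

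Label gain, the odds of a T>C read in mice with Uprt over those without, was tested at each locus with a mean of at least 50 reads in both groups, with the quasi-likelihood test of edgeR on reads with and without a conversion, with sex as a term. In Lmna F/F hearts 34.8% of all 15703 loci tested had a higher share with Uprt at an adjusted p under 0.05. Of the 577 loci, 499 were tested and 78 had too few reads; 38 (7.62%) had a higher share with Uprt and 5 a lower one, where 0.166% of all loci tested had a lower one. Their median log2 odds ratio was 0.20, against 1.24 over the 15204 other loci, and 308 of the 499 had a ratio above 0 (61.7%, against 88.5% of the others).

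In Lmna +/+ hearts, where 3 hearts lacked Uprt, 20.4% of 14696 loci tested had a higher share with Uprt. Here 242 of the 577 loci were tested and 335 had too few reads, and 14 (5.79%) had a higher share and 0 a lower one by edgeR (31 of the 242, or 12.8%, had an unadjusted p under 0.05 in either direction, against 35.3% of all loci tested). DESeq2 gave 21 higher (8.68%), against 26.2% of all loci tested. The median log2 odds ratio was 0.50, against 1.11 over the other loci. Of the 14 loci, 6 (42.9%) were also among the 38 of Lmna F/F, and of the 28 of those 38 that were tested in Lmna +/+ these 6 made up 21.4%. The same overlap over all loci tested was not counted, so these shares cannot be called low or high. Whether the gain differed between the genotypes was not tested. Without heart 1 of the Lmna +/+ group without Uprt the count of 14 fell to 4, and without heart 4 of the Lmna +/+ Uprt group it fell to 9.

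**Figure D3:**
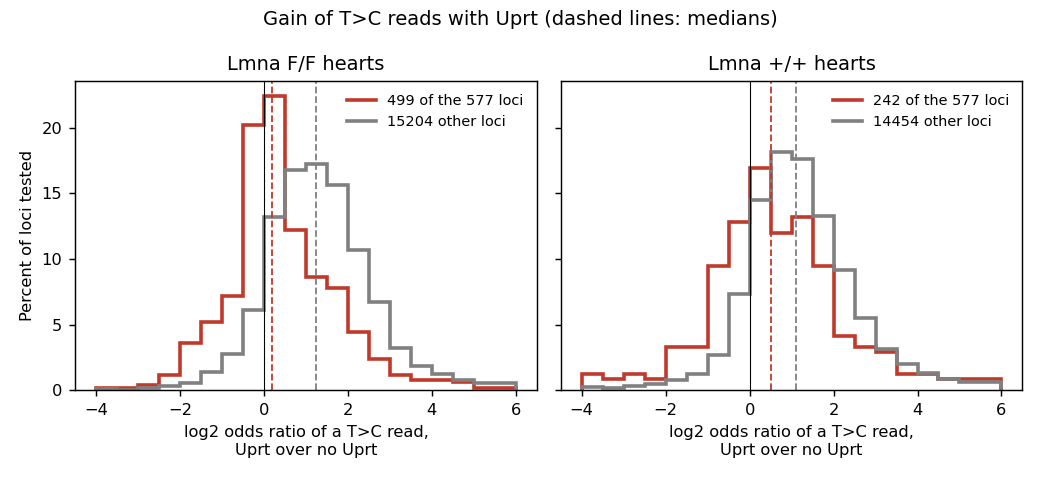
Distribution of the label gain, as a log2 odds ratio with Uprt over without (horizontal axis), in Lmna F/F hearts (left) and Lmna +/+ hearts (right), as the percent of loci tested, for loci among the 577 (red) and other loci (grey); values beyond the axis are in the end bins. In Lmna F/F the red median of 0.20 lies near 0 and the grey median at 1.24.

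A test has less power at loci with few reads. Among loci with a mean of at least 200 reads in both groups, 25 of 206 of the loci described here (12.1%) had a higher share with Uprt in Lmna F/F, against 52.6% of all loci tested, and 9 of 85 (10.6%) in Lmna +/+, against 35.1% of all loci tested. The shares were also read within bands of depth. In Lmna F/F, among loci with a mean of 50 to 100 reads in the group with fewer, 3 of 152 (1.97%) of the loci described here had a higher share with Uprt, against 8.86% of 3103 others, and at 100 to 200 reads 10 of 141 (7.09%) did, against 19.1% of 2934 others. At 200 to 500 reads 12 of 109 (11%) of the loci described here had a higher share with Uprt, against 35.9% of 3716 others. At 500 to 1000 reads it was 2 of 38 (5.26%) against 53.3% of 2243 others, and from 1000 reads 11 of 59 (18.6%) against 64.1% of 3208 others. The median log2 odds ratios in the 3 bands from 200 reads were 0.12, -0.01 and 0.07 for the loci described here and 1.32, 1.28 and 1.03 for the others. In Lmna +/+ the bands from 500 reads held under 20 of the loci each and are not read. At 50 to 100 reads 2 of 96 (2.08%) had a higher share, against 3.73% of 3058 others, at 100 to 200 reads 5 of 61 (8.20%) did, against 9.50% of 2895 others, and at 200 to 500 reads 4 of 48 (8.33%) did, against 20.4% of 3541 others. The gap to the others in the share called was small in the lower bands of Lmna +/+. The median log2 odds ratio there was 0.63 at 50 to 100 reads, against 1.30 for the others. At 100 to 200 reads it was 0.87 against 1.34, and at 200 to 500 reads 0.44 against 1.16. The gap was not tested in any band.

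The 38 loci with a higher share with Uprt in Lmna F/F had a median level of 7.53 CPM in Lmna F/F Uprt hearts, against 3.84 CPM for the others tested. Their log2 odds ratios ranged from 0.90 to 6.56, with a median of 2.15.

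Of the 5 largest gains, the one with the most reads was at chr17:34488083-34488393 (plus strand). Its T>C share was 36.9%, 37.4%, 41.4%, 40.0%, 34.7% and 41.9% in Lmna F/F Uprt hearts and 1.95%, 3.08%, 1.802% and 3.13% in Lmna F/F hearts without Uprt. The log2 odds ratio was 4.63 ± 0.25 (SE; adjusted p = 2.5e-08, edgeR). In Lmna +/+ the share was 32.4% to 42.9% over the 8 Uprt hearts, and 1.82%, 29.9% and 4.25% in the 3 hearts without Uprt, so 1 heart without Uprt lay near the hearts with it; the log2 odds ratio there was 3.05 ± 0.74 (adjusted p = 0.011, edgeR). That call was lost without heart 1 or heart 3 of the Lmna +/+ group without Uprt (log2 odds ratio 2.02 and 2.53, adjusted p = 0.063 and 0.055, edgeR). The Lmna F/F groups did not overlap.

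The other 4 of the 5 largest gains in Lmna F/F rested on few converted reads. At chr6:117820214-117821479 79 of 1051 reads (7.52%) were converted with Uprt and 0 of 546 without, which allows a share of up to 0.549%, so the share was at least 13.7-fold higher with Uprt. Heart 6 of the Lmna F/F Uprt group had 0 converted of 236 reads there, as had every heart without Uprt, so the groups overlapped, and the other 5 hearts had 7.34% to 12.2%. At chr2:26252777-26253032 it was 30 of 927 reads with Uprt and 0 of 534 without, at least 5.76-fold higher. At chr12:85523233-85524047 92 of 1083 reads with Uprt and 1 of 748 without gave a ratio of 63.5 (95% exact interval 11.1 to 2537), and at chr12:17596147-17596282 57 of 2036 and 1 of 1438 gave a ratio of 40.3 (6.94 to 1618). These intervals and limits cover counting error only. The adjusted p of the 4 loci in edgeR was 0.0098, 0.03, 0.00051 and 0.003 in the order given, and the call at chr2:26252777-26253032 was lost when any 1 of the 4 hearts without Uprt or heart 5 of the Lmna F/F Uprt group was left out. At that locus the pooled share in Lmna +/+ was 4.05% with Uprt and 6.02% without, with 0%, 9.86% and 6.82% in the 3 hearts without Uprt (log2 odds ratio -2.55 ± 1.70, adjusted p = 0.29, edgeR). No gain was called in Lmna +/+ at chr6:117820214-117821479 (9.55% with and 2.41% without Uprt, 1.30 ± 1.82, adjusted p = 0.64, edgeR). Nor was one called at chr12:85523233-85524047 (5.15% and 1.47%, 0.86 ± 1.53, adjusted p = 0.72, edgeR). The locus chr12:17596147-17596282 had too few reads there to be tested.

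Among the 10 highest loci the gain was called at 2. At chr19:36089361-36090217 the share was 4.44%, 8.23%, 4.39%, 8.72%, 11.3% and 4.43% in Lmna F/F Uprt hearts and 1.24%, 1.96%, 1.55% and 1.71% without Uprt, a log2 odds ratio of 2.09 ± 0.28 (adjusted p = 8.1e-05, edgeR). No heart without Uprt reached any heart with it. At chr4:136623228-136623464 the share was 4.50% of the pooled reads with Uprt and 2.13% without (log2 odds ratio 0.90 ± 0.29, adjusted p = 0.024, edgeR). That call was lost without heart 5 of the Lmna F/F Uprt group or heart 1 or 2 of the Lmna F/F group without Uprt (log2 odds ratio 0.83, 0.63 and 0.85, adjusted p = 0.063, 0.067 and 0.069, edgeR). At the highest locus, chr5:142888870-142889552, the pooled share was 3.16% with Uprt and 2.87% without in Lmna F/F, from 236661 and 207955 reads, and the log2 odds ratio was 0.10 ± 0.21 (adjusted p = 0.75, edgeR).

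Some loci carried converted reads in mice without Uprt at a level far above the rest. A T>C share of at least 20%, with at least 20 reads, was seen in a mouse without Uprt at 60 of the 577 loci (10.4%) and at 1620 of the 17604 loci of at least 1 CPM (9.20%). The 5 largest shares among the loci tested in Lmna F/F hearts without Uprt were at chr14:51062189-51062406, chr2:90945740-90946101, chr1:171057148-171057489, chr14:54461143-54461663 and chr19:34626258-34627409, with pooled shares of 39.8%, 33.3%, 33.04%, 31.3% and 27.1%. Hearts fell on either side of a wide gap at several of them. At chr1:171057148-171057489 the Lmna F/F hearts without Uprt had 36.9%, 36.3%, 1.90% and 35.4%, and the Lmna F/F Uprt hearts had 37.2%, 36.2%, 5.49%, 30.8%, 28.5% and 3.85%. The share there did not follow the transgene, and its log2 odds ratio was 0.05 ± 0.88 (adjusted p = 0.97, edgeR).

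At chr16:37654289-37656876, among the 10 highest loci, the share was 34.3% and 33.1% in hearts 4 and 6 of the Lmna F/F Uprt group and 2.01% to 2.79% in the other 4. It was 1.94%, 3.20%, 2.51% and 2.15% in the Lmna F/F hearts without Uprt, and 3 of the 8 Lmna +/+ Uprt hearts had 32.3% to 35.7%. At chr1:45387908-45388866 the split was another one: the share was 16.4% to 18.1% in all 6 Lmna F/F Uprt hearts and 3.37%, 18.0%, 17.1% and 17.3% in the Lmna F/F hearts without Uprt, and it was 16.6% to 20.8% in the Lmna +/+ Uprt hearts and 4.01%, 18.7% and 17.9% in the Lmna +/+ hearts without Uprt. In both genotypes 1 heart without Uprt was low and all the others were near the hearts with Uprt. Neither locus passed the test of label gain in Lmna F/F (adjusted p = 0.32 and 0.3, edgeR).

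A different pattern was measured at chr11:94842446-94843868 (plus strand). Its level was 111.9 to 196 CPM in Lmna F/F Uprt and 41.5 to 74.5 CPM in Lmna +/+ Uprt hearts, and 384, 347, 91.2 and 141 CPM in Lmna F/F and 57.4, 66.5 and 53.5 CPM in Lmna +/+ hearts without Uprt. Its T>C share ran the other way, with 7.69% to 13.0% in Lmna F/F Uprt and 18.7% to 28.8% in Lmna +/+ Uprt hearts, and with 4.96%, 5.61%, 13.2% and 8.96% in Lmna F/F and 23.96%, 24.2% and 25.5% in Lmna +/+ hearts without Uprt. The converted reads alone came to 14.3 ± 1.46, 13.1 ± 1.59, 15.8 ± 4.01 and 14.5 ± 1.39 CPM in the 4 groups in this order (SD, n = 6, 8, 4 and 3). The unconverted reads therefore carried nearly all of the difference in level between hearts.

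The 5 loci with a lower share with Uprt in Lmna F/F are named after their values were seen. They were chr7:127749367-127749829, chr19:34626258-34627409, chr9:119877749-119880335, chr2:174269286-174269664 and chr11:16921206-16924149, with log2 odds ratios of -5.23 ± 1.22, -2.55 ± 0.89, -2.27 ± 0.62, -1.997 ± 0.70 and -1.68 ± 0.50 (SE) and adjusted p of 0.0041, 0.037, 0.011, 0.037 and 0.017 in edgeR. At 4 of the 5 a mouse without Uprt had a T>C share of at least 20%. At chr2:174269286-174269664 the share was 0.543% to 3.58% in Lmna F/F Uprt hearts and 1.76%, 2.80%, 28.7% and 4.25% in the hearts without Uprt, so that 1 heart was far above the others; without that heart the log2 odds ratio was -0.92 (adjusted p = 0.19, edgeR). Without the same heart the call was also lost at chr9:119877749-119880335 (log2 odds ratio -1.80, adjusted p = 0.061) and chr19:34626258-34627409 (-2.18, adjusted p = 0.13, edgeR). With each of the 10 hearts left out in turn, the call was lost 6 times at chr2:174269286-174269664, 7 times at chr19:34626258-34627409 and 1 time at chr9:119877749-119880335, and without the sex term it was lost at the first 2 of these.

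**Figure D4:**
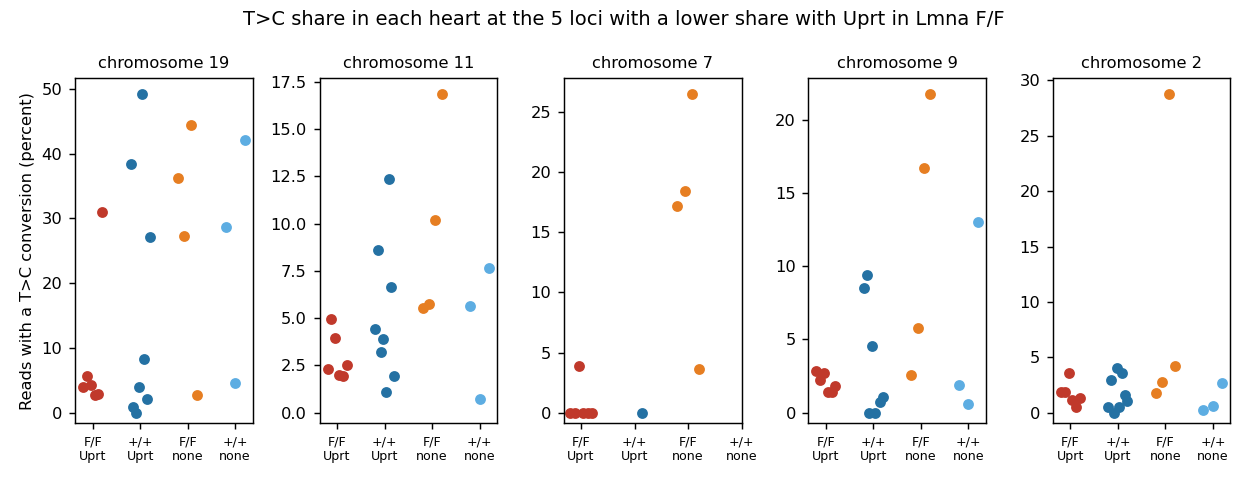
T>C share (percent, vertical axis, separate scale per panel) in each heart, by group, at the 5 loci with a lower share with Uprt in Lmna F/F; hearts with under 20 reads at a locus are not drawn. In the chromosome 2 panel 1 heart without Uprt lies at 28.7% and every other heart at or below 4.25%.

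Across hearts of 1 genotype, the levels of the loci were correlated in Lmna F/F and hardly so in Lmna +/+. After each group was centred on its own mean, the median Pearson r between 2 of the 577 loci over the 10 Lmna F/F hearts was 0.66, against 0.07 over all loci of at least 1 CPM; Spearman's rho was 0.61 and 0.07. Over the 11 Lmna +/+ hearts the median r of the same loci was 0.07, and that of all loci was 0.07. A mean r of at least 0.5 with the rest of the 577 was reached by 463 loci in Lmna F/F and by 0 in Lmna +/+, where the highest values lay under 0.25. For the 123 loci with a mean of at least 10 CPM in Lmna F/F Uprt hearts, the medians were 0.83 in Lmna F/F and 0.14 in Lmna +/+. Over all 6637 loci of that level they were 0.10 in both genotypes. That limit was set in Lmna F/F, where the rule makes the chosen loci higher, so the genotypes were not compared at a like level. These are descriptions over hearts, given without a p, and loci of 1 heart share its library, depth and scale.

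Much of this correlation rested on hearts 1 and 2 of the Lmna F/F group without Uprt. Without both, the median r was 0.25, against 0.06 over all loci, and over the 6 Lmna F/F Uprt hearts alone it was 0.23, against 0.08 over all loci. Of the 10 hearts, leaving out the 2 farthest from the median, which were hearts 1 and 3 without Uprt, gave 0.46. Within the 6 Lmna F/F Uprt hearts, leaving out the 2 farthest, hearts 2 and 6, gave 0.06 over the other 4. The value over all loci was not computed for those 4. Without hearts 1 and 2 lacking Uprt, 0 of the 577 loci had a mean r of at least 0.5. The highest was then 0.45, and 505 had one above 0. The median of the 123 loci of at least 10 CPM was then 0.53, against 0.13 over all 6637 loci of that level. With any 1 heart left out the median over the 577 loci lay between 0.54 and 0.70. Within the 8 Lmna +/+ Uprt hearts the median was 0.09, against 0.07 over all loci. The rule used the mean of each group and not the spread inside it, although a group mean of at least 2 times the other is reached more easily where 1 or 2 hearts are very high.

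**Figure D5:**
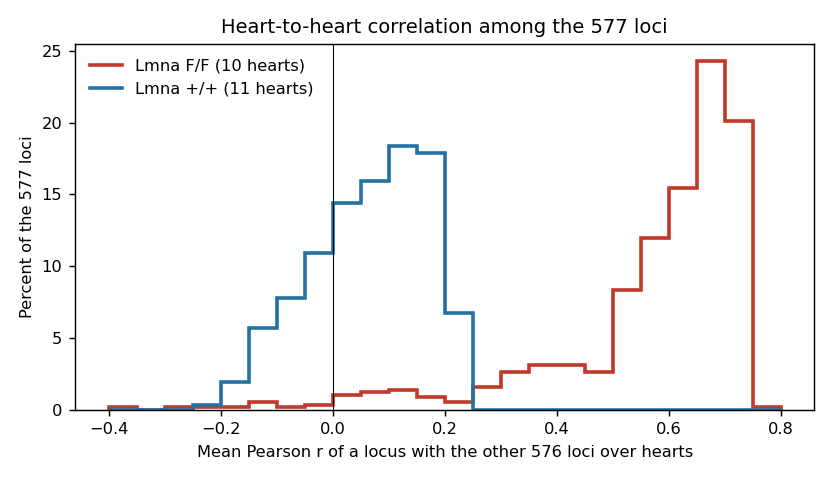
Mean Pearson r of each of the 577 loci with the other loci over hearts (horizontal axis), in Lmna F/F (10 hearts, red) and Lmna +/+ (11 hearts, blue), after centring each group on its mean. In Lmna F/F 463 loci lie at or above 0.5 (0 when hearts 1 and 2 without Uprt are left out), and in Lmna +/+ 0 do.

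The 5 loci with the highest mean r in Lmna F/F were chr2:152735612-152737241, chr11:16921206-16924149, chr11:94842446-94843868, chr6:122824097-122826781 and chr15:103405839-103407236, all at 0.75; without hearts 1 and 2 lacking Uprt they lay at 0.42, 0.43, 0.45, 0.43 and 0.44. At chr6:122824097-122826781 the level was 30.1, 33.1, 26.8, 22.7, 25.9 and 23.4 CPM in Lmna F/F Uprt hearts, against 0.847, 7.80 and 11.4 CPM as the lowest, median and highest of the Lmna +/+ Uprt hearts, and 75.4, 55.7, 16.7 and 27.7 CPM in Lmna F/F and 13.6, 11.7 and 9.80 CPM in Lmna +/+ hearts without Uprt. Hearts 1 and 2 without Uprt led here as they did in the sum over all loci.

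The 5 loci with the lowest mean r did not follow the others. They were chr15:76361649-76364781, chr9:95744836-95745591, chr2:134645869-134646348, chr18:60574837-60576052 and chr11:48691159-48694795, with values of -0.36, -0.29, -0.24, -0.18 and -0.14. At chr2:134645869-134646348, where 99.8% of reads were multimapped, each heart was in 1 of 2 states: 0.257, 34.3, 0.0719, 0.221, 23.5 and 35.7 CPM in the Lmna F/F Uprt hearts, and in the Lmna +/+ Uprt hearts 2 were at 21.7 and 25.3 CPM while the other 6 lay at or below 0.184 CPM. Without Uprt the Lmna F/F hearts had 0.0563, 34.2, 28.7 and 31.2 CPM and the Lmna +/+ hearts 0.137, 0 and 0.118 CPM. This locus entered the set through the number of hearts in the high state, 3 of 6 and 3 of 4 in Lmna F/F against 2 of 8 and 0 of 3 in Lmna +/+. At chr9:95744836-95745591 73.5% of reads were multimapped.

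Few loci differed by sex within groups, in the 577 as in all loci. In the fit of all 21 libraries with group means, 14 of 31327 loci (0.0447%) were higher in females and 58 (0.185%) lower at an adjusted p under 0.05, and of the 577 loci, all tested, 0 were higher and 1 lower by edgeR. At an unadjusted p under 0.05 there were 59 (10.2%), against 2897 of all loci tested (9.25%). DESeq2 called 1 higher and 2 lower among the 577, against 104 and 143 over all loci. The 1 locus, named after its values were seen, was chr17:34947354-34947459, with 16.2, 8.91, 9.23 and 8.81 CPM in the female and 16.7 and 20.6 CPM in the male Lmna F/F Uprt hearts, a log2 female over male ratio of -0.90 ± 0.19 (SE; adjusted p = 0.035, edgeR). Of its reads 11.5% were multimapped. With 1 library left out, the call was lost for 12 of the 21 libraries, and the number of loci called ranged from 0 to 10, the highest without heart 2 of the Lmna F/F group without Uprt.

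The loci nearest to each limit show how sharp the selection was. The lowest inside the limit of 1 CPM was chr11:70598026-70598394 at 1.001 CPM in Lmna F/F Uprt hearts, and the highest outside it was chr11:83555208-83555509 at 0.999 CPM, with 0.0511 CPM in Lmna +/+ Uprt hearts. For the ratio with Uprt, chr3:90513047-90513192 was just inside at 2.002 and chr18:61263553-61265221 just outside at 1.998, with 147 CPM in Lmna F/F Uprt and 73.7 CPM in Lmna +/+ Uprt hearts. For the ratio without Uprt, chr2:156945265-156946736 was inside at 2.007 and chr4:58042442-58043146 outside at 1.998.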

How the data were processed

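For each of 21 mice 1.5 µg of left-ventricular RNA was alkylated (12 mM iodoacetamide) and sequenced from the 3′ end, in reads of 100 bases, per the labels. The deposited table gives, per the file headers, counts of reads, T>C reads and multimapped reads for each 3′ UTR interval and library, in SlamDunk's column layout, and the interval's length and T content, which are scores of the interval. Reads were mapped to mm39, per the submitters' processing notes. How reads were aligned, whether known variants were filtered and how many conversions mark a read is not given in the sources used here.

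Of overlapping intervals of 1 strand the one with the most reads was kept (208307 intervals, 121259 loci). CPM is the read count per 1000000 reads on kept loci. The members, lists and tests were chosen with earlier results of these data known. Tests used edgeR 4.0.16 in R 4.3.3 (glmQLFit, glmQLFTest, TMM, Benjamini-Hochberg, adjusted p under 0.05) over all loci tested. Label gain used converted and unconverted reads, an effect per library, and read type by Uprt and by sex; the sex fit used filterByExpr with its minimum count of 10. Each was tested on simulated data. The SE is the fold change over the root of the F statistic. Correlations used log2 CPM with 0.5 added. DESeq2 1.42.0, other filters and scales, and each library left out were alternatives. Named loci are the 10 highest in Lmna +/+ Uprt, the 5 largest called gains and 5 largest shares without Uprt in Lmna F/F, the 5 highest and 5 lowest mean correlations, and those nearest each limit. Of 570 transcript IDs 0 matched the supplied reference table, so loci are given by position, the 26 gene and marker lists were not run, and no sequence is shown. Each library is 1 mouse. No columns of other samples were present.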

Additional observations from a re-analysis of the deposited data

Results flagged for a closer look

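In 21 of 150 groups of 4 to 8 hearts examined, 1 heart lay apart from the others by Dixon's criterion, which marks about 5% of groups by chance. The groups share hearts and loci and are not independent, so the count of 21 cannot be set against that 5%. Heart 2 of the Lmna F/F Uprt group was the one marked most often, in 5 groups. Its loci averaged 1.53 above the Lmna +/+ mean (log2), against 1.08 to 1.21 in the other 5 hearts. In it 540 of the 577 loci exceeded every Lmna +/+ heart, with or without Uprt, against 449 to 482 in the other 5. These counts use the contrast that chose the loci. The same count over all loci was not made, so they are not read as a trait of the 577. The same heart was high at chr11:94842446-94843868 (196 CPM, others 111.9 to 132), chr2:152735612-152737241 (3.08 CPM, others 2.17 to 2.41) and chr11:16921206-16924149 (13.7 CPM, others 8.64 to 10.3). These loci are among those with the highest mean r with the rest of the 577 over Lmna F/F hearts. The 5 marks are thus not separate findings.

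Heart 1 of the Lmna F/F group without Uprt was low at chr2:134645869-134646348 (0.0563 CPM, others 28.7 to 34.2) and in T>C share at chr14:51062189-51062406 (4.97%, others 53.5% to 62.4%), and was the 1 heart of its group with a converted read at chr12:17596147-17596282 (0.145%). Heart 2 of that group was the 1 heart with a converted read at chr12:85523233-85524047 (0.35%). Heart 3 of that group was high at chr15:76361649-76364781 (1.52 CPM, others 0.723 to 0.76), low in T>C share at chr1:171057148-171057489 (1.90%, others 35.4% to 36.9%) and high at chr2:174269286-174269664 (28.7%, others 1.76% to 4.25%).

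In Lmna F/F Uprt, heart 6 was low in level at chr14:51062189-51062406 (2.17 CPM, others 3.39 to 3.93) and high in T>C share at chr19:34626258-34627409 (30.9%, others 2.70% to 5.65%), heart 1 was low in T>C share at chr2:90945740-90946101 (8.72%, others 31.4% to 40.9%), and heart 3 was the 1 heart with a converted read at chr7:127749367-127749829 (3.90%). In Lmna +/+ Uprt, heart 3 had the highest T>C share over other nuclear loci (5.93%, others 4.51% to 5.14%) and the highest level at chr18:60574837-60576052 (2.87 CPM, others 0.186 to 1.39). In the same group heart 2 was high at chr4:136607440-136607599 (105 CPM, others 61.0 to 76.6), heart 8 at chr11:48691159-48694795 (1.13 CPM, others up to 0.462) and heart 7 at chr7:127749367-127749829 (0.892 CPM, others up to 0.346). The part of any of these hearts in the results was tested only by leaving it out.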

How the results depend on the processing

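The choice of loci depended most on the level limit and on 2 hearts. With no minimum level 5951 loci met both ratios, with a minimum of 5 CPM 210 did, and with hearts 1 and 2 of the Lmna F/F group without Uprt both left out 377 did, of which 375 were among the 577. Library sizes scaled by TMM left 413 loci and DESeq2 size factors 406, all among the 577. Leaving out 1 library gave 516 to 623. Loci with a higher T>C share with Uprt numbered 25 in Lmna F/F and 9 in Lmna +/+ at a minimum of 200 reads, where fewer loci were tested, against 52.6% and 35.1% of all loci tested there; with 1 library left out they numbered 30 to 43 and 4 to 13. Loci that differed by sex numbered 3 with DESeq2 (0.52% of those tested, against 0.788% of all loci). With no low-count filter they numbered 38 (6.59%, against 0.993% of 64985 loci). Those 64985 include loci that the filter removes for few reads, while all 577 pass it, so these shares are not of like depth. They numbered 0 in Lmna F/F hearts alone (against 0.08%) and 4 in Lmna +/+ Uprt hearts alone (0.734%, against 0.662%). With 1 library left out they numbered 0 to 10, and the cause was not tested. The median heart-to-heart r in Lmna F/F was 0.25 without hearts 1 and 2 lacking Uprt and 0.54 to 0.70 with 1 heart left out. With only Uprt hearts it was 0.23, and 0.06 when hearts 2 and 6 of these were left out. In Lmna +/+ it was 0.06 to 0.08 with 1 heart left out. No named locus that passed a test changed direction under the alternatives run for it. No paired analysis was possible because the labels give no replicate numbers. Loci with few reads limit the label test: 78 of the 577 in Lmna F/F and 335 in Lmna +/+ were not tested.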
